A study of Caenorhabditis elegans with 2 samples.

Results

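The MCM genes mcm-2, mcm-3, mcm-4, mcm-5, mcm-6 and mcm-7 of the nematode Caenorhabditis elegans were chosen by name, and every ranked binding site of the protein BED-1 with its summit within 1000 bases of one of their annotated starts was kept. All 6 genes were found among 19973 protein-coding genes of the nuclear chromosomes, and 28 of the 120637 ranked peaks met the rule. BED-1, a protein with a BED-type zinc finger, had been mapped by chromatin immunoprecipitation with sequencing (ChIP-seq). The strain, RW12201, carries a CRISPR insertion that joins TY1, EGFP and 3xFLAG tags to the endogenous bed-1 gene on chromosome V, and an antibody against green fluorescent protein was used. Both samples were biological replicates of 1 group of whole young adults of 63 hours, grown from larvae starved in the first larval stage after bleaching. An untagged control was not analysed here. The study therefore holds no comparison of conditions, and both samples carry the same allele. Whole animals were used, so the cells in which a site was bound cannot be told apart.

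The products of these genes form the ring-shaped MCM helicase, which is loaded onto replication origins before S phase and then unwinds DNA ahead of the fork. The subunits encoded by mcm-4, mcm-6 and mcm-7 are known in other eukaryotes as the core that unwinds DNA by itself, and those of mcm-2, mcm-3 and mcm-5 complete the ring, with the opening for DNA between the mcm-2 and mcm-5 products. In young adult worms, cells divide mainly in the germline. The gene mcm-4 is also known as lin-6, since its loss blocks DNA replication in larval cell lineages. In humans, MCM promoters are known targets of the cell cycle factor E2F.

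Nothing below is a test. The members were chosen with the readout known, and what follows describes where peaks lay, how strong they were and how far the replicates went together. A peak's signal is the authors' value, its scale is unknown, and it is used only within a list. The irreproducible discovery rate (IDR) of a peak measures how well its rank holds between 2 sets of calls. A low IDR marks a peak that ranks high in both, so a weak peak with close replicate values can still have a high IDR. The main list holds 589 of the 704 ranked peaks at or under an IDR of 0.01, and its ranked list also holds the many that fail. Ranked peaks covered 30856586 of 100272607 nuclear bases, so a ranked peak alone sets no gene apart. The depth is unknown.

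Before the signals, the sequence just upstream of the annotated starts is shown, because 5 of the 6 promoters hold an E2F-type word. The words sought on both strands were TTTCCCGC, TTTCGCGC, TTTGCCGC and TTTGGCGC, from 250 bases before to 50 after the outermost start, and 4.69% of 19973 protein-coding promoters hold at least 1 of them. The lines give the 200 bases before the start of 3 of the genes on the gene's own strand, 5′ to 3′ (build WBcel235, RefSeq sequence), with E2F-type words in capitals. They lie at chrIII:4291267-4291466 (minus strand), chrIII:9794167-9794366 (plus strand) and chrV:4346966-4347165 (plus strand).
mcm-5: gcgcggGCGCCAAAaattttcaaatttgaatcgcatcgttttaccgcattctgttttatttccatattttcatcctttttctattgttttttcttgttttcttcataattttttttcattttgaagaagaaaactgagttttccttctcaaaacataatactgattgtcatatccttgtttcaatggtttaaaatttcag
mcm-6: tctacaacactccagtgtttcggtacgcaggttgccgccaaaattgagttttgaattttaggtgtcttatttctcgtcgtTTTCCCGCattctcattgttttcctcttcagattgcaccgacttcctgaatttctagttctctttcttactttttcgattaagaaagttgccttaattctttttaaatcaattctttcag
mcm-7: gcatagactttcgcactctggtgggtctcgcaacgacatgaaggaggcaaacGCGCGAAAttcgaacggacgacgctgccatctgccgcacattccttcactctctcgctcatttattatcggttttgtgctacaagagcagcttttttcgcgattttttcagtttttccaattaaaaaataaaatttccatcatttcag

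The word TTTCGCGC, or its complement, was in the promoters of mcm-4, mcm-6 and mcm-7 and in 1.14% of all promoters. Counted from the outermost start, with upstream positions negative, it began at -148 in mcm-7, -131 in mcm-4 and -247 in mcm-6, beyond the stretch shown. TTTGGCGC began at -194 in mcm-5 (0.941% of all promoters) and TTTCCCGC at -120 in mcm-6 (1.57%). The promoter of mcm-2 held none of these letters in this window. The words bound by fly DREF (TATCGATA) and human ZBED1 (TGTCGCGA), both BED finger proteins, were in no member's promoter, and in 0.521% and 0.215% of all promoters.

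The 3 printed stretches all end in tttcag. This is the form of a 3′ splice site, at which worm messages receive a spliced leader by trans-splicing, so an annotated start may lie downstream of the true start of transcription. The 6 bases TTTCAG ended just before the outermost start of 5 of the 6 MCM genes and of 12.3% of all protein-coding genes. All 6 MCM genes had AG there, as did 27.6% of all.

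Among the core subunit genes, mcm-4 (WBGene00003156, chromosome I, 2318291 to 2321817, minus strand) had the only main-list peak within 1000 bases of a start of a member. That makes 1 of the 6 genes, against 1.64% of all protein-coding genes. The peak spans 2318166 to 2318425, with its summit at 2318296, a signal of 70.8, a score of 851 and an IDR of 0.00892. The ranked list behind the conservative list gives the signal in each replicate without naming its replicate columns. There its values were 38.8 and 31.1 (35.0 ± 5.50, SD, n = 2). They equal the signals of this peak in the own ranked lists of replicate 1 and replicate 2, in that order. Both replicates thus held the peak at a similar level.

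The mcm-4 peak did not lie at the promoter. Its summit was in exon 7, the last of the gene, in the 3′ UTR and 5 bases before the annotated end, where the 3′ UTR of the convergent gene ekl-7 overlaps it. It met the rule only because the Ensembl annotation lists a transcript of 225 bases that starts 3166 bases past the outermost start, and the summit is 355 bases past that internal start. From the outermost start the summit is 3521 bases away. With the outermost starts alone, 0 of the 6 genes had a main-list peak, against 1.41% of all genes.

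At the mcm-4 promoter itself, the summit at 2321971 (-154 from the outermost start) had a signal of 37.6 and replicate values of 18.3 and 21.2. The window of 100 bases to each side of it held the E2F-type word. A peak 353 bases downstream, in coding exon 3, had a signal of 36.8, with 9.39 in one replicate column and 29.0 in the other. The remaining peaks that met the rule, at the internal start, had signals of 38.3, 24.0 and 6.31, and 33.7 at a summit inside ekl-7.

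The ranked peaks within the rule at mcm-6 (WBGene00003158, chromosome III, 9794367 to 9798644, plus strand) had signals from 15.2 to 43.5. All of them but the strongest had the highest IDR that the list gives, 0.680. The strongest within the rule, with a signal of 43.5, had its summit at 9797131 in coding exon 4, 307 bases past an internal start that lies 2457 bases into the gene. Its replicate values were 30.1 and 12. Within 1000 bases of the outermost start the strongest had a signal of 29.6, in coding exon 2, with replicate values of 6.22 and 24.6, so each of these peaks rested mainly on a different replicate column. Upstream, a summit at -528 had a signal of 25.3 and lay 197 bases from the start of the neighbour R10E11.9. Beyond the rule, a summit 121 bases past the end of the gene had a signal of 50.4, the highest at mcm-6, with replicate values of 27.6 and 30.0. It lay 342 bases from the start of the neighbour ZK632.2 and 4398 bases from the outermost start of mcm-6.

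For mcm-7 (WBGene00003159, chromosome V, 4347166 to 4349768, plus strand) the strongest peak, with a signal of 38.0, lay 726 bases past the start in coding exon 2. Its replicate values were 7.95 and 32.9, a difference of 2.05 on the log2 scale. Close to the start the signals were lower. They were 18.1 at -283, 6.85 at -80 and 8.75 at 130 bases downstream. The first and second of these share the same pair of replicate peaks, with values of 14.8 and 4.2, so they are not separate measurements. The window around the summit at -80 held the E2F-type word printed above.

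Among the genes that complete the ring, mcm-2 (WBGene00003154, chromosome II, 12001509 to 12006625, minus strand) had the strongest peak near an outermost start. Its signal was 56.4, with replicate values of 27.2 and 20.3, and its summit lay 514 bases past the outermost start in exon 2, a coding exon. A summit at -338, outside any gene, had a signal of 47.2 and replicate values of 17.5 and 27.2. The sequence around it held the ZBED1 word, as did that at the mcm-6 summit at 9797131. These were 2 of the 28 windows, and 0.159% of all ranked windows held it.

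A second main-list peak of the family lay in mcm-2, beyond the reach of the rule. It had a signal of 72.5, a score of 831 and replicate values of 28.6 and 43.5 (36.1 ± 10.5, SD, n = 2), and its summit was 1306 bases past the outermost start, farther than 1000 from each of its starts, in intron 2 of 983 bases. Only 2 of the 589 main-list peaks had a lower score. The sequence of this peak and that of the strongest peak of mcm-3 are shown on the gene's strand, because they are the strongest sites at genes other than mcm-4. They lie at chrII:12005189-12005448 and chrV:15058179-15058438, both on the minus strand, and capitals mark the 21 bases around the summit. The mcm-2 peak has 28 coding bases among its 260 and a GC content of 33.5%, and the mcm-3 peak lies wholly in coding sequence with a GC content of 46.9%.
mcm-2: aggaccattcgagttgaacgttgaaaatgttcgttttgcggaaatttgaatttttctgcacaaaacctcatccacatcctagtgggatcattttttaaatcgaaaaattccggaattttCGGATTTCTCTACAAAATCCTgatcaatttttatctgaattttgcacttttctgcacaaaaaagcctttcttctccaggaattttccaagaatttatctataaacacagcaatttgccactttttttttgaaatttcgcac
mcm-3: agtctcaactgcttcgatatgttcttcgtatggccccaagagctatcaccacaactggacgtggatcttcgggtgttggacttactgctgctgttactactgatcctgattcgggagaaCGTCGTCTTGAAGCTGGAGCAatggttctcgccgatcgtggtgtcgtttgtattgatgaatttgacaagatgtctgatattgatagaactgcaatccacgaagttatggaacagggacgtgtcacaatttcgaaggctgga

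That mcm-3 peak (gene WBGene00003155, chromosome V, 15056719 to 15059599, minus strand) lay 1290 bases past the start in exon 3, with a signal of 67.1 and replicate values of 35.1 and 32.1. The replicate values were closer here than at either main-list peak. In the list behind the main list its −log10 IDR was 1.42, short of the 2 that an IDR of 0.01 requires. In the ranked list behind the conservative list, which holds the replicate values, it was 1.91. There the main-list peaks of mcm-4 and mcm-2 had 1.96 and 1.98. The summit at 15058508 shares this pair of replicate peaks, so it is not a separate measurement. Within the rule, the strongest peak of mcm-3 had a signal of 38.4 at -895, in an intron of the divergent gene C25D7.15 and nearer to that gene's start (686 bases) than to that of mcm-3. Close to the start, at -53, the signal was 24.1, with 2.15 in one replicate column and 21.7 in the other.

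For mcm-5 (WBGene00003157, chromosome III, 4288264 to 4291266, minus strand) only 2 ranked peaks met the rule. One had a signal of 37.4 at 510 bases past the start, in coding exon 2, with replicate values of 17.6 and 16.5. The other had a signal of 33.0 at -776, inside nth-1, which encodes a DNA repair glycosylase, with replicate values of 18.2 and 19.4. The replicate values were close at both. Yet at -776 neither replicate's own ranked list had a summit within 130 bases, so the close values there do not show a shared summit. Neither peak had the E2F-type word within 100 bases of its summit.

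**Figure D1:**
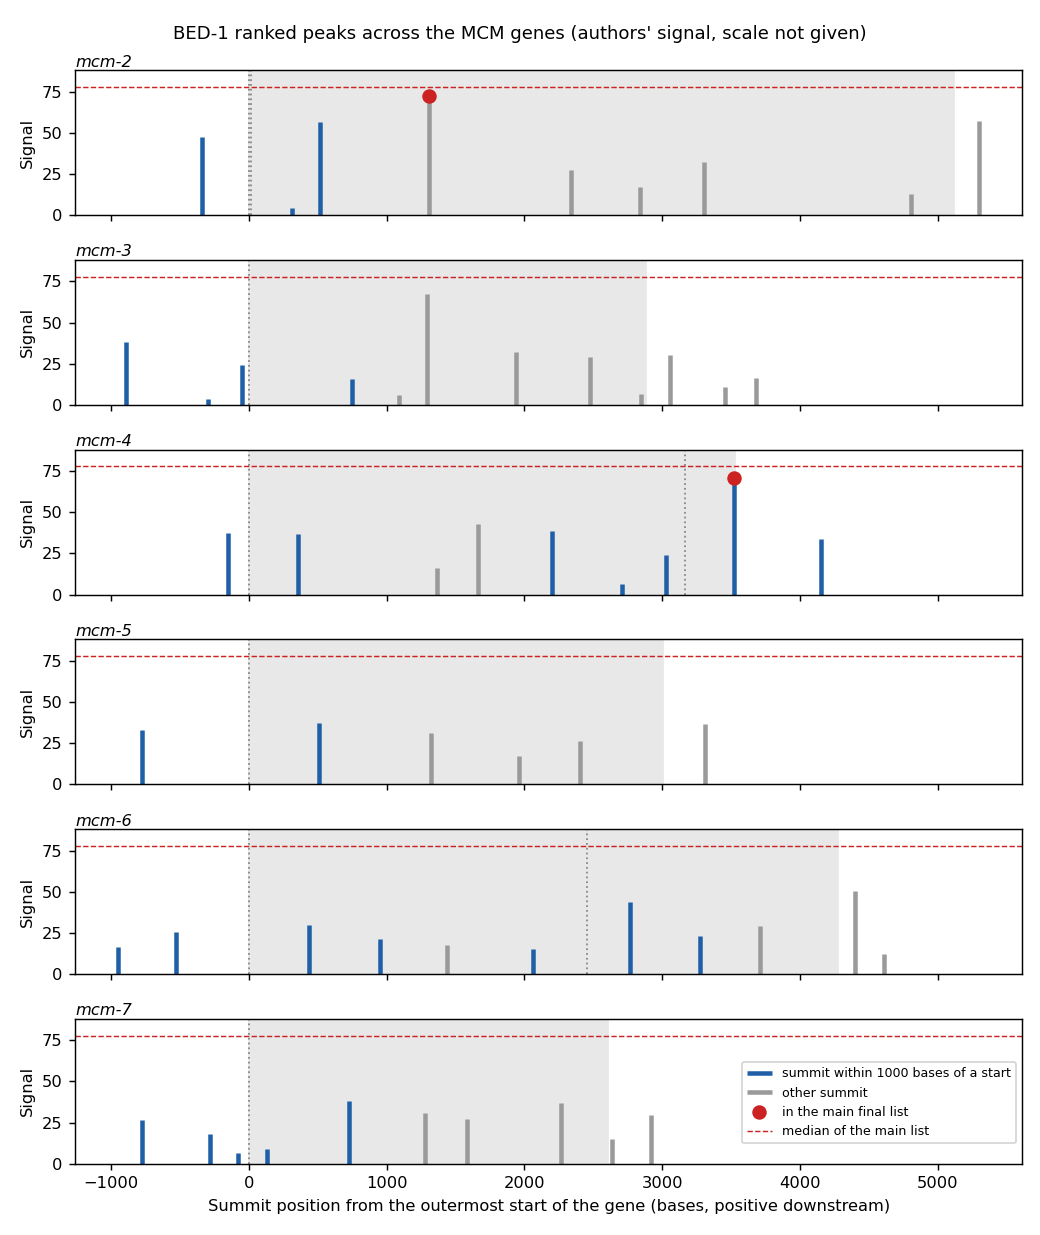
Each panel gives the ranked peaks of 1 MCM gene by the position of the summit from the outermost start (bases) and the authors' signal, with the gene in grey and annotated starts as dotted lines. Red points mark the main-list peaks, at 1306 bases in mcm-2 and at the end of mcm-4, both under the main list's median of 77.9, and no promoter peak reaches them.

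Both main-list peaks of the family were weak for that list. By signal, the mcm-2 peak ranked 396 and the mcm-4 peak 442 of 589, below the list's median of 77.9. Neither was in the conservative list, so that list gave 0 of the 6 genes a peak by the rule, against 1.48% of all genes. There their scores in the ranked list were 820 and 813, and the lowest score kept was 830. Neither was in the final list of a single replicate. Counted over the whole gene with 1000 bases added at each end, 2 of the 6 genes had a main-list peak, against 3.25% of all protein-coding genes. The whole-gene count was added after the peaks had been seen, and it was 1 of 6 by the rule.

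**Figure D2:**
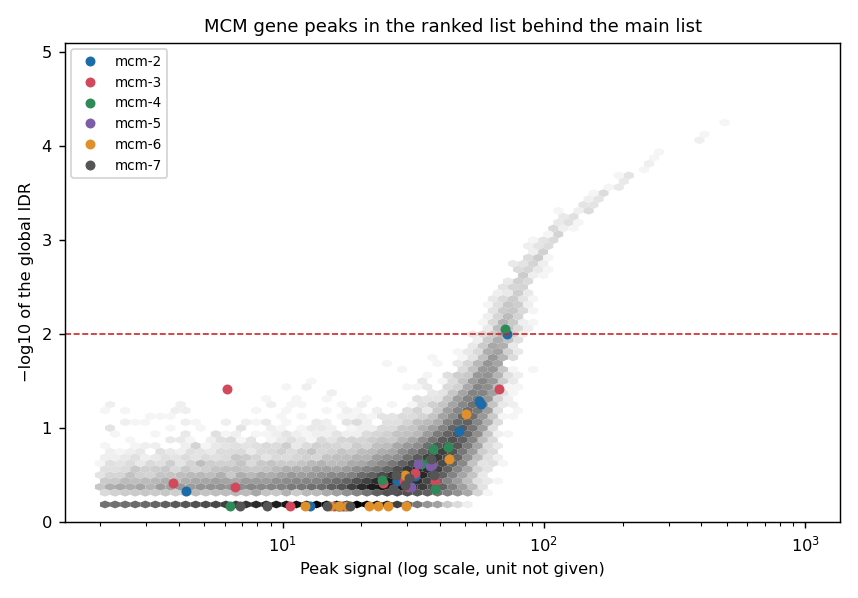
Ranked peaks are placed by signal (log scale) and −log10 of the global IDR, with all peaks of the list as grey shading and the peaks over the MCM genes as coloured points. The dashed line is an IDR of 0.01, and the main-list peaks of mcm-2 (2.00) and mcm-4 (2.05) lie just above it while all other coloured points are below it.

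Of the 28 peaks, 11 lay in coding exons of the member, 4 in introns, 1 in a 3′ UTR, 6 in another gene and 6 outside any gene. Their signals ran from 3.79 to 70.8, with a median of 25.9, against 23.5 over all ranked peaks. The highest IDR that the list gives, 0.680, was that of 11 of the 28 and of 39.3% of all ranked peaks. All 28 windows of 200 bases were of unique sequence by words of 31 bases, as were 62.6% of the main-list windows. The median GC content of the 28 was 41.5%, against 46.0% in the main list. Only 1 of the 28 was in the main list. Uniqueness and GC content were not computed over all ranked peaks, so they set the members apart from no matching background. An E2F-type word was in 3 of the 28 windows, among them those at the promoters of mcm-4 and mcm-7, and in 3.66% of the windows of all ranked peaks.

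The number of ranked peaks within the rule was 7 for mcm-4 and mcm-6, 5 for mcm-7, 4 for mcm-3, 3 for mcm-2 and 2 for mcm-5, against a median of 3 over all genes with one. The internal starts of mcm-4 and mcm-6 widen the stretch searched. With the outermost start alone the counts were 2 for mcm-4 and 4 for mcm-6. Just inside the limit of 1000 bases lay summits of mcm-4 at 984 bases (signal 33.7) and 963 bases (38.3). Just outside lay those of mcm-6 at 1016 bases (17.7) and of mcm-5 at 1057 bases (15.6).

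By the strongest peak within the rule, the order was mcm-4 (70.8), mcm-2 (56.4), mcm-6 (43.5), mcm-3 (38.4), mcm-7 (38.0) and mcm-5 (37.4). The last 4 have no clear order. The SD between the replicate columns was 12.8 at the mcm-6 peak, 13.6 at that of mcm-3 and 17.7 at that of mcm-7, more than the gaps between these genes, though it was 0.796 at that of mcm-5. The median over the 6 was 40.9, against 35.4 over the 18099 genes (90.6% of all) with a ranked peak within 1000 bases. All 6 were above that median, at the 98.3rd percentile for mcm-4, the 92.7th for mcm-2, the 73.1st for mcm-6, the 59.4th for mcm-3, the 58.1st for mcm-7 and the 56.2nd for mcm-5. With outermost starts alone mcm-4 fell to the 60.6th and mcm-6 to the 34.5th, while mcm-2 stood at the 93.7th. The high places of mcm-4 and mcm-6 thus came from internal starts, and that of mcm-2 did not.

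Taken over the whole gene, the genes separated further. The strongest signals were 72.5 for mcm-2, 70.8 for mcm-4 and 67.1 for mcm-3, then 50.4 for mcm-6, 38.0 for mcm-7 and 37.4 for mcm-5, where the median of all genes was 41.8. The value of mcm-6 is that of the summit past its end, which is nearer to the start of ZK632.2. Among genes within 25% of the same annotated length, a comparison also added after the peaks had been seen, mcm-2, mcm-3 and mcm-4 stood at the 96.7th, 95.6th and 96.8th percentiles. The others were lower, with mcm-6 at the 68.8th, mcm-7 at the 36.7th and mcm-5 at the 31.7th.

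**Figure D3:**
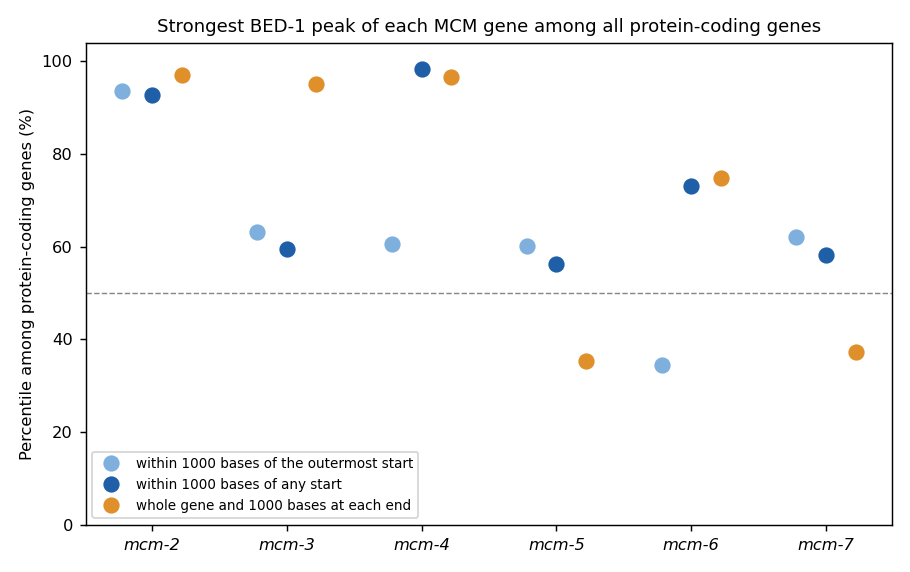
For each MCM gene the percentile of its strongest peak among protein-coding genes is given for 3 ways to look for the peak, with the 50th percentile dashed. The points of mcm-2 stay at or above 92.7, those of mcm-4 and mcm-6 rise once starts inside the gene count, and that of mcm-3 is high only over the whole gene.

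The replicates were not closer at the MCM genes than elsewhere. Of the 27 peaks that the ranked list behind the conservative list also held, 15 (55.6%) differed by more than 2-fold between the replicate columns, against 34.2% of its 121039 peaks and 9.56% of the main-list peaks found in it. The difference (second minus first column, log2) had a median of -0.10 over the members and 0.13 over the whole list. It went both ways in 5 of the 6 genes. All 4 peaks of mcm-3 were higher in the second column, and 4 of the 5 of mcm-7 were higher in the first. The peaks that share a replicate peak with a neighbour, 6 of the 28, are counted separately here.

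In the replicates' own ranked lists, 8 of the 28 peaks had a summit within 130 bases in both, 5 in replicate 1 only, 7 in replicate 2 only and 8 in neither. Where replicate 1 had such a summit, its signal equalled the first replicate column, and for replicate 2 it equalled the second. The signals in these lists are therefore not a measurement separate from the replicate columns. In replicate 1 the strongest peak within 1000 bases of a start had a signal of 38.8 for mcm-4, 30.1 for mcm-6, 27.2 for mcm-2, 25.3 for mcm-7 and 17.6 for mcm-5, and mcm-3 had no listed peak there. In replicate 2 it was 32.9 for mcm-7, 31.1 for mcm-4, 27.2 for mcm-2, 26.0 for mcm-3, 16.5 for mcm-5 and 15.8 for mcm-6. The medians over all genes with a peak, 73.8% of genes in replicate 1 and 75.3% in replicate 2, were 20.1 and 21.9. In both replicates the values of mcm-4, mcm-2 and mcm-7 lay above the median and that of mcm-5 below. These were not always the same site. For mcm-4 (363 and 364 bases past the internal start) and mcm-5 (491 and 510 bases past the start) the summits of both replicates lay close together. For mcm-2 it was at 495 in replicate 1 and -379 in replicate 2, each from the nearest start. For mcm-7 it was at -789, in the neighbour hpo-18, in replicate 1 and at 769 in replicate 2. The strongest site also differed for mcm-6, which stood at the 90.3rd percentile in replicate 1 and the 17.2nd in replicate 2. No MCM gene was in a replicate's own final list, which held a peak for 0.285% and 0.290% of all genes.

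**Figure D4:**
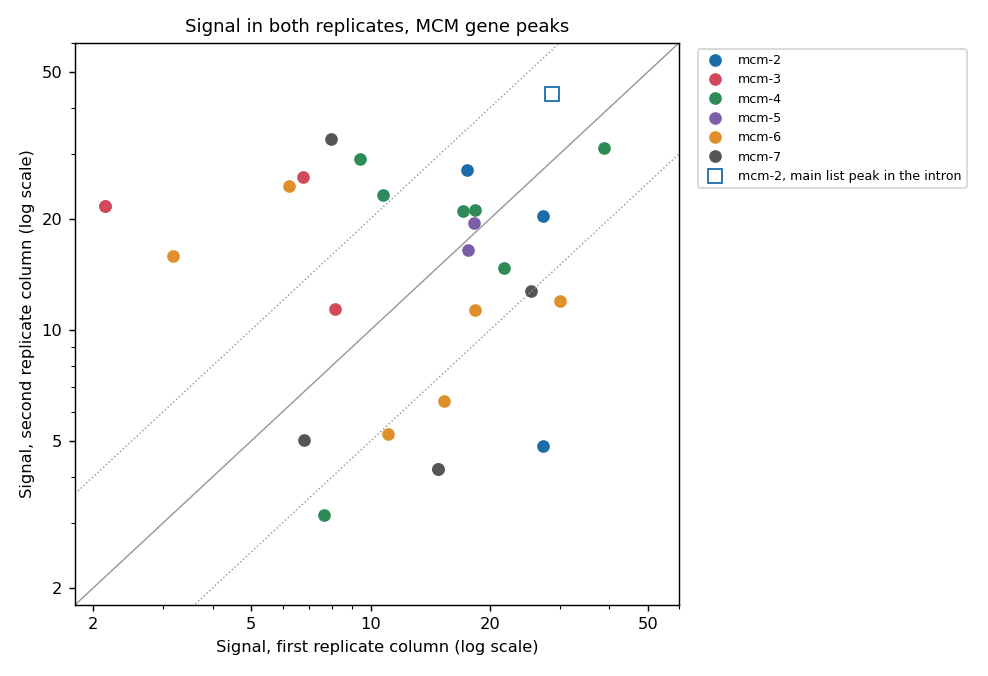
The signal of each peak within 1000 bases of a start is given in the first and the second replicate column (both log scales), with equality as a solid line and a 2-fold difference as dotted lines. The mcm-4 main-list peak (38.8 and 31.1) and the intronic mcm-2 peak (28.6 and 43.5, open square) lie within the dotted lines, while 15 of the 27 peaks lie outside them, with those that share a replicate peak drawn on top of each other.

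For the other genes of DNA replication, 42 of 45 listed symbols were matched, and a single gene, rpa-2, had a main-list peak within 1000 bases (2.38%, against 1.64% of all genes). It encodes a subunit of replication protein A, which coats single-stranded DNA behind the helicase. The rpa-2 peak had a signal of 251, with replicate values of 112 and 133, and its summit lay at -662 from the start. Whether another gene starts nearer to that summit was not examined. Next came div-1, a DNA polymerase alpha-primase subunit gene (77.4, with 28.2 and 41.1), tim-1, the worm Timeless gene (75.4, with 43.7 and 38.3), gmn-1, which encodes geminin, an inhibitor of origin licensing (68.2, with 36.7 and 27.0), and dna-2, a nuclease and helicase gene (61.6, with 23.7 and 34.5). Each was at the 95.7th percentile or higher, yet of the 40 with a ranked peak only 19 were above the median of all genes, and their own median was 34.0. The peak of tim-1, with a −log10 IDR of 1.95, was absent from the main list and present in the conservative one.

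By the signals in both replicate columns, the genes most like mcm-4 were R10E11.6 (39.1 and 30.8, at a distance of 0.014 on the log2 scale), K10D2.5 and emb-1. The last pair share a single peak (39.2 and 31.3, at 0.016). The mcm-4 values compared are those of its main-list peak in the 3′ UTR, not of its promoter. The summits of the others lay at 19 bases (R10E11.6), -53 (K10D2.5) and -772 (emb-1) from the nearest start. The likeness rests on 2 samples.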

How the data were processed

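ChIP-seq of tagged BED-1 was deposited for 2 biological replicates of whole worms. Per the deposited file descriptions, the authors derived ranked and IDR-thresholded peak lists (build ce11, which is WBcel235) from the alignments of each replicate and of both together, with further files of unstated content. The aligner and peak caller: not given in the sources used here. Each peak's signal, its score and the −log10 of its IDR were taken as deposited by the authors. The files hold no counts, so depth and counting error are unknown.

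Peaks, with 1-based coordinates, were joined to the Ensembl annotation with Python 3.11.15, pandas 2.3.3 and numpy 2.4.6. All 120637 ranked peaks lay inside the reference. A summit was kept within 1000 bases of the start of any transcript. The join was tested on simulated data. No sample was left out, and with 1 group no test was made. A gene's percentile is the share of genes with a listed peak whose strongest signal is equal or lower. Replicates were treated as in the deposited list, which does not name its replicate columns. At the member peaks it shares with the replicates' own ranked lists, the first column equalled replicate 1 and the second replicate 2. The members and gene lists were chosen with earlier results of these data known. The genes named are the 6 members, the 5 replication genes of highest signal and any with a main-list peak, the 3 most like mcm-4, and neighbours with a start nearer to a member's strongest summit. The neighbours ekl-7, nth-1, R10E11.9 and ZK632.2 were named after their values were seen. Alternatives were other windows, starts, lists, thresholds and single replicates. The sequence upstream of mcm-3 is not reported here.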

Additional observations from a re-analysis of the deposited data

How the results depend on the processing

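The count of members with a main-list peak was 1, at mcm-4. It was 2 within 2000 bases, where mcm-2 joined, and 0 with the outermost starts alone, the conservative list or an IDR of 0.001. It was 0 to 0 in the list of a single replicate. These follow from the settings themselves. The mcm-2 summit lies 1306 bases from its outermost start, the internal start of mcm-4 no longer counts among outermost starts, its score of 813 is under the conservative list's lowest of 830, and its IDR is 0.00892. The median strongest signal over the members, 40.9, became 58.7 within 2000 bases, and its median percentile, 66.3, became 86.3 within 2000 bases and 82.4 within 500 bases. The latter is over 5 genes, since mcm-5 had no peak there, and mcm-3 and mcm-7 were lower, at 32.4 and 16.2. In the list of a single replicate that percentile ran from 72.9 to 83.2, the latter without mcm-3, which had no peak in replicate 1. The other replication genes with a main-list peak, 1 in number, were 0 within 500 bases and 2 (rpa-2 and tim-1) in the conservative list. All 6 members had a ranked peak within 2000 bases, with outermost starts and in replicate 2, and 5 had one within 500 bases (not mcm-5) and in replicate 1 (not mcm-3). Over all members and settings, 4 of 17 strongest signals (from 3 members) and 15 of 34 percentiles moved beyond the spread between replicates, and the signals of mcm-3 and mcm-7 within 500 bases were 24.1 and 18.1. For the signals that spread is of the replicate columns, which are lower than the pooled signals, so the count of signals that moved is only a rough guide. No paired analysis was possible because the study holds a single group. With 2 replicates and unknown depth, differences between members whose replicate values overlap could not be told apart.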
